A study of Mus musculus with 12 samples.

Results

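The levels of 10 genes of the endoplasmic reticulum stress response were followed across lesioned and unlesioned mouse striatum: Dnajb9, Hspa5, Sdf2l1, Creld2, Pdia4, Hyou1, Manf, Xbp1, Herpud1 and Ddit3. These are 10 of the 52169 gene symbols in the deposited transcript table, where they have 79 transcripts of 189660. The rows were taken by symbol, and each gene is given by its transcript with the highest mean normalised read count. All 10 passed the filter on low counts in every comparison. Dnajb9 was chosen for the way its level moved between these groups, so its values are a description and carry no test. The other 9 joined it as genes of the same response.

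The libraries came from striatal punches of female C57BL/6J mice that had received the neurotoxin 6-OHDA into the right medial forebrain bundle, which removes the dopamine fibres of that striatum, after desipramine to spare noradrenergic neurons. After 2 weeks the mice were given L-DOPA at 10 mg/kg with 7.5 mg/kg benserazide, either as a single dose (acute) or daily for 9 days (chronic), and tissue was taken 1 h after the last dose. This made 4 groups of 3 libraries: acute unlesioned, acute lesioned, chronic unlesioned and chronic lesioned. Every library came from a mouse treated with L-DOPA, so a lesion effect is the effect of dopamine loss together with the response of that striatum to the drug, and ages were not given in the sources used here. The labels count 12 mice, while the study's text treats the unlesioned side as each mouse's own control.

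The endoplasmic reticulum folds secreted and membrane proteins, and unfolded protein there is sensed by the kinases Ire1 and Perk and by Atf6. Ire1 splices Xbp1 mRNA and Atf6 is cleaved to a transcription factor, and both raise chaperones and degradation factors, while Perk slows translation and raises Atf4 and Ddit3 (Chop). In neurons the same chaperones also serve the routine folding of receptors, channels and neuropeptide precursors.

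Library totals ran from 87695043 to 173116525 counts over all transcripts, and no count of a member was under 119 in any library. Medium spiny neuron markers, which define the labelled tissue, summed to between 2185 and 2990 CPM (read counts scaled to the library total, the unit of all levels here) in the 12 libraries. That sum hides members of the list that moved with the lesion: Drd1a, the dopamine D1 receptor, was called lower (0.203-fold with acute and 0.400-fold with chronic L-DOPA), Penk higher (1.92-fold and 2.17-fold), Tac1 higher (1.86-fold and 1.56-fold), and Pdyn lower with acute (0.591-fold) and higher with chronic L-DOPA (5.66-fold). By its choroid plexus signal 1 library stood apart: chronic unlesioned replicate 2 held 451 CPM of the choroid plexus gene Ttr, against 0.0694 to 1.50 CPM in the other 11. Calls of the members that change without it are given beside the result. Cortical glutamatergic markers also set libraries apart: Slc17a7 measured 23.4, 10.6 and 10.1 CPM in acute unlesioned, 12.2, 1.64 and 1.24 CPM in acute lesioned, 18.1, 4.00 and 32.7 CPM in chronic unlesioned and 17.8, 1.33 and 1.29 CPM in chronic lesioned libraries. It was thus high in replicate 1 of both lesioned groups, and the other lesioned libraries were below every unlesioned one of their treatment. Leaving out that replicate therefore widens the difference in Slc17a7 between the sides. The part of Slc17a7 in the members' levels was not tested.

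The promoters of 8 of the 10 genes, from 250 bases before to 50 after the start, were read from RefSeq sequence of build GRCm38.p6; those of Manf and Hyou1 were not among them. These windows are shown because the genes are taken to answer to shared elements. The endoplasmic reticulum stress element (ERSE) is CCAAT and CCACG 9 bases apart, and ERSE-II is ATTGG and CCACG 1 base apart. Both strands were searched. Dnajb9, Hspa5, Creld2 and Herpud1 are printed 5′ to 3′ along the gene. Capitals mark the fixed letters of ERSE in Hspa5 and Creld2 (in Creld2 on the opposite strand), of ERSE-II in Herpud1, and also in Herpud1 the Atf4 composite letters TGATGCAA read on the opposite strand. In Dnajb9, which held neither element, capitals mark its separate CCAAT and CCACG runs.
Dnajb9 promoter, chr12:44210019-44210318, minus strand: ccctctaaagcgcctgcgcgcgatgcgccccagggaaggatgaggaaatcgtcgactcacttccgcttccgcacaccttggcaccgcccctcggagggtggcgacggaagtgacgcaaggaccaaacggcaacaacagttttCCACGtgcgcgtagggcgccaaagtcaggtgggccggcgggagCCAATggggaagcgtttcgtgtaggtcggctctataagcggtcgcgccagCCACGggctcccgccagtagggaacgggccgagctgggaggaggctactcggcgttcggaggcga
Hspa5 promoter, chr2:34771840-34772139, plus strand: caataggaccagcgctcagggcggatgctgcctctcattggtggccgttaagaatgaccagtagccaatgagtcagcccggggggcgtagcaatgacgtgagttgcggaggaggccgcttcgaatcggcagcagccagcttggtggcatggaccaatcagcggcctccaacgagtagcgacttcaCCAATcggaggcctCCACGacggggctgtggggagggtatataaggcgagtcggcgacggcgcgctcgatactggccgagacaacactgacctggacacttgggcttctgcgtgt
Creld2 promoter, chr15:88819396-88819695, plus strand: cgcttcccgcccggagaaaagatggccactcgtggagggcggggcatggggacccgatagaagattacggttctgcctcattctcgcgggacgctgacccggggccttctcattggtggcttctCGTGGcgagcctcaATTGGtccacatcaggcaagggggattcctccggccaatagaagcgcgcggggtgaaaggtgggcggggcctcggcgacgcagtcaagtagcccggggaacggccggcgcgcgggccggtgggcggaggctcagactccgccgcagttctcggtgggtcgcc
Herpud1 promoter, chr8:94386179-94386478, plus strand: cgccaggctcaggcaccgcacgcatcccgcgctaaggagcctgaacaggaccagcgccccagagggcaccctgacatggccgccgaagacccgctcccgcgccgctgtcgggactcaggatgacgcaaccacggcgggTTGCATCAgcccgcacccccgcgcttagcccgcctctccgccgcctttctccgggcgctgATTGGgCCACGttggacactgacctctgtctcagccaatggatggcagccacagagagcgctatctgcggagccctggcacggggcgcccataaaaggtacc

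ERSE was in 2 of the 8 members' windows and in 0.119% of 32851 promoter windows of the same length. It began 65 bases before the start of Hspa5 and 126 bases before that of Creld2. ERSE-II was in 1 of the 8, in Herpud1, 52 bases before its start, and in 0.0365% of all windows. The letters TGATGCAA were in 0.895% of all windows and, among the 8, in Herpud1. CCACG alone, which both elements contain, was in 6 of the 8 and in 32.8% of all windows, and CCAAT, which is part of ERSE and in its reverse complement of ERSE-II, was in 7 of the 8 and in 37.4%. The Xbp1 binding letters TGACGTGG (0.676% of all windows) and the cAMP response element TGACGTCA (1.79%) were in none of the 8, which says that these letters are not in these windows. The first letters of both, TGACG, were in 3 of the 8, Dnajb9, Hspa5 and Herpud1, and in 20.8% of all.

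Dnajb9 encodes ERdj4, a co-chaperone of the endoplasmic reticulum that works with Hspa5 and helps to send misfolded proteins to degradation. It lies on mouse chromosome 12 at 45306884 to 45311055 (mm9, minus strand) with 3 exons, and no exon of another annotated gene overlaps its exons. Its normalised read count was 7.36, 6.75 and 6.21 CPM in the acute unlesioned libraries and 37.9, 31.0 and 33.9 CPM in the acute lesioned ones. After chronic L-DOPA it was 7.12, 7.02 and 5.96 CPM in the unlesioned and 8.85, 8.90 and 8.05 CPM in the lesioned libraries. The 3 acute lesioned libraries stood above the other 9, and the chronic lesioned libraries stood just above the chronic unlesioned ones without overlap.

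The lesion effect of Dnajb9 was a fitted 2.35 ± 0.09 on the log2 scale (SE, n = 3 against 3) after acute L-DOPA, a 5.09-fold difference, and 2.27 without acute lesioned replicate 1. After chronic L-DOPA it was 0.36 ± 0.10, or 1.29-fold, and 0.40 ± 0.11 without the library rich in Ttr or 0.35 without chronic lesioned replicate 1. Within same-numbered libraries the lesioned level was 5.15, 4.59 and 5.47 times the unlesioned one after acute treatment, and 1.24, 1.27 and 1.35 times after chronic treatment. From acute to chronic, Dnajb9 changed by -2.00 ± 0.09 in the lesioned and by -0.02 ± 0.09 in the unlesioned striatum. The lesion effect after chronic minus that after acute L-DOPA, the interaction, was -1.98 ± 0.14. These numbers share libraries with each other and with the choice of the gene, and they place Dnajb9 at 37 from the top in the acute lesion effect among 12795 genes of at least 1 CPM and at 3 from the bottom in the interaction among 12794.

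The order of the Dnajb9 means was acute lesioned (34.3 ± 3.49 CPM, SD, n = 3), chronic lesioned (8.60 ± 0.48), acute unlesioned (6.77 ± 0.58) and chronic unlesioned (6.70 ± 0.64). The last 2 differed by less than their spread. All 4 Dnajb9 transcripts of the table moved alike, with acute lesion effects from 2.26 to 2.35 and interactions from -1.99 to -1.83, but they share reads.

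**Figure D1:**
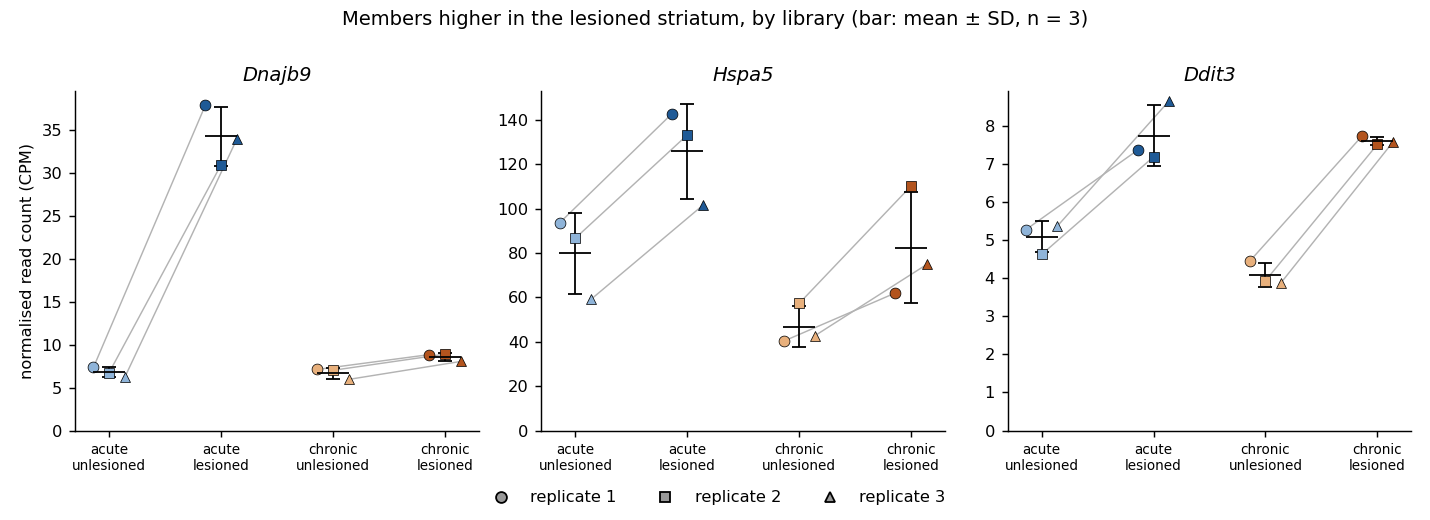
Normalised read count (CPM, linear axis from 0) of Dnajb9, Hspa5 and Ddit3 in the 4 groups of 3 libraries. Symbols mark replicates 1 to 3, grey lines join same-numbered libraries, and bars give the mean ± SD. Dnajb9 is high in the acute lesioned libraries, whereas Hspa5 and Ddit3 are above their same-numbered unlesioned library after both treatments.

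Among the 9 other members, Hspa5 and Ddit3 (2 of 9) rose on the lesioned side with acute L-DOPA, and both also rose with chronic L-DOPA. Over 1 transcript per gene, 8.16% of 20402 genes were called higher in the acute comparison and 8.46% of 19742 in the chronic one, at an adjusted p under 0.05. The libraries of the 2 sides did not overlap for 2 of the 9 after each treatment, as for 16.7% and 16.3% of all genes in that direction. The acute and the chronic comparison share no library. The median change of the 9 was -0.08 after both treatments, against medians over all genes of 0.02 and -0.01.

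Markers of glia moved in these lesion comparisons too. With acute L-DOPA 3 of 10 astrocyte markers were called higher on the lesioned side, led by Gfap (2.37-fold), the list summing to 752 to 948 CPM against 680 to 741 CPM on the unlesioned side. Of the microglia markers 5 of 10 were higher (124 to 148 against 112 to 117 CPM) and of the oligodendrocyte markers 2 of 10 (2280 to 3786 against 2248 to 2532 CPM). With chronic L-DOPA Gfap (3.90-fold) was the 1 astrocyte marker called, and edgeR called 0 of 10 in either of the other lists, with 0 at an unadjusted p under 0.05 and 0 by DESeq2. No defining marker of these lists was at 3 counts or fewer throughout a group. Outside glia, the cortical list had median lesion effects of -1.03 after acute and -1.45 after chronic L-DOPA. With acute L-DOPA Neurod6 was called lower (0.280-fold) and Cux2 higher (1.28-fold). With chronic L-DOPA edgeR called 0 of 9 tested (1 at an unadjusted p under 0.05, 0 by DESeq2). The choroid plexus gene Ttr was called lower after both treatments, the chronic call being lost without the library rich in Ttr. The part of all these markers in the lesion effects of Dnajb9, Hspa5 and Ddit3 was not tested.

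Hspa5 encodes BiP, the main Hsp70 chaperone of the endoplasmic reticulum, which holds the stress sensors inactive until unfolded protein draws it away. It lies on chromosome 2 at 34627610 to 34632049 (mm9, plus strand) and carries the ERSE shown above. Its level was 93.7, 86.7 and 59.1 CPM in acute unlesioned, 143, 133 and 102 CPM in acute lesioned, 40.3, 57.3 and 42.7 CPM in chronic unlesioned and 62.0, 110 and 74.9 CPM in chronic lesioned libraries. Lesioned and unlesioned libraries did not overlap after either treatment, though replicate 3 was the lowest of both acute groups and replicate 2 the highest of both chronic groups.

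The lesion effect of Hspa5 was 0.67 ± 0.15 after acute L-DOPA (edgeR's quasi-likelihood test, adjusted p = 0.0154) and 0.82 ± 0.20 after chronic L-DOPA (adjusted p = 0.0236). Its interaction was 0.16 ± 0.29 (adjusted p = 0.82 by the same edgeR test), and 0.12 ± 0.09 with a block for the replicate number (adjusted p = 0.460 by edgeR). The 2 calls were not firm without a block for the replicate number: leaving out acute lesioned replicate 2 gave an edgeR adjusted p of 0.067, and leaving out chronic unlesioned replicate 1 or 3 or chronic lesioned replicate 3 gave 0.0901, 0.098 and 0.0528. With that block the edgeR adjusted p was 2.84e-06 and 1.06e-05. Without the library rich in Ttr the chronic effect was 0.99 ± 0.20 (edgeR adjusted p = 0.00792). Without replicate 1 of the lesioned group, high in Slc17a7, the effects were 0.57 (edgeR adjusted p = 0.0361) and 0.99 (edgeR adjusted p = 0.0124). That omission widens the difference in Slc17a7 between the sides, so it is no check on cortical content.

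Ddit3 encodes Chop, a transcription factor at the end of the Perk branch that is linked to cell death under prolonged stress. It lies on chromosome 10 at 126727849 to 126733344 (mm9, plus strand). Ddit3 measured 5.27, 4.62 and 5.36 CPM in acute unlesioned and 7.36, 7.18 and 8.65 CPM in acute lesioned libraries. After chronic L-DOPA it measured 4.44, 3.93 and 3.88 CPM in unlesioned and 7.72, 7.51 and 7.57 CPM in lesioned libraries. The groups were fully apart on the lesion axis, and the lesioned libraries of the 2 treatments overlapped.

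The lesion effect of Ddit3 was 0.61 ± 0.09 (edgeR adjusted p = 8.35e-04) after acute and 0.90 ± 0.09 (edgeR adjusted p = 1.02e-04) after chronic L-DOPA. The chronic effect was 0.87 ± 0.11 without the library rich in Ttr, and the effects were 0.65 and 0.89 without replicate 1 of the lesioned group, all still called. Leaving out that replicate does not even out Slc17a7 between the sides. The interaction of 0.29 ± 0.13 did not pass (edgeR adjusted p = 0.24). Of the 7 Ddit3 transcripts, which share reads, 1 was called higher in the interaction (range 0.19 to 0.83). Between treatments in lesioned striatum 1 of the 7 was called higher (range -0.09 to 0.42). All 7 were called higher for the lesion, at 0.60 to 0.91 after acute and 0.84 to 1.74 after chronic L-DOPA. Between lesioned libraries chronic differed from acute by -0.03 ± 0.09, and between unlesioned ones by -0.31 ± 0.09 (edgeR adjusted p = 0.862 and 0.0846). Ddit3 shares 68 of its 1694 annotated exonic bases (4.01%) with Mars, a tRNA synthetase gene on the opposite strand, and the library kit does not mark strand. Mars itself had lesion effects of 0.08 ± 0.07 and 0.08 ± 0.09, neither called. From acute to chronic Mars changed by -0.33 ± 0.08 in lesioned (edgeR adjusted p = 0.0140) and by -0.34 ± 0.08 in unlesioned striatum (edgeR adjusted p = 0.0546), beside the -0.31 of Ddit3 in unlesioned striatum.

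The 7 remaining members had no call for the lesion in either treatment. Sdf2l1 (a partner of the J-domain chaperones), Pdia4 (a disulphide isomerase), Creld2 (a secreted isomerase-like protein), Hyou1 (the exchange factor Grp170), Manf (a secreted survival factor), Xbp1 (the transcription factor downstream of Ire1) and Herpud1 (a membrane organiser of degradation) had acute lesion effects from -0.29 to 0.04 and chronic ones from -0.27 to 0.00. None of the 7 had an unadjusted p under 0.05 in edgeR, and DESeq2 called none of them in either comparison. Without the library rich in Ttr their chronic effects ran from -0.19 for Sdf2l1 to 0.13 for Manf with no call, and that of Pdia4 went from -0.25 to -0.01.

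Same-numbered libraries showed small differences that the unblocked fit did not call. After acute L-DOPA 5 of the 7 were lower in the lesioned library of all 3 pairs, and after chronic L-DOPA 4 of the 7, where 28.6% and 29.1% of all genes were. Sdf2l1 in the lesioned library was 0.784, 0.771 and 0.936 times its unlesioned level in the acute pairs, and Pdia4 was 0.812, 0.916 and 0.908 times. With the replicate number as a block, 4 of the 9 tested members were called after acute L-DOPA, where 25.1% of all genes were, the additional 2 being Sdf2l1 at -0.28 (edgeR adjusted p = 0.0270) and Pdia4 at -0.18 (edgeR adjusted p = 0.0328), both lower. After chronic L-DOPA the blocked fit called 3 of 9 and 24.2% of all genes, Pdia4 being lower at -0.26 (edgeR adjusted p = 0.0305).

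**Figure D2:**
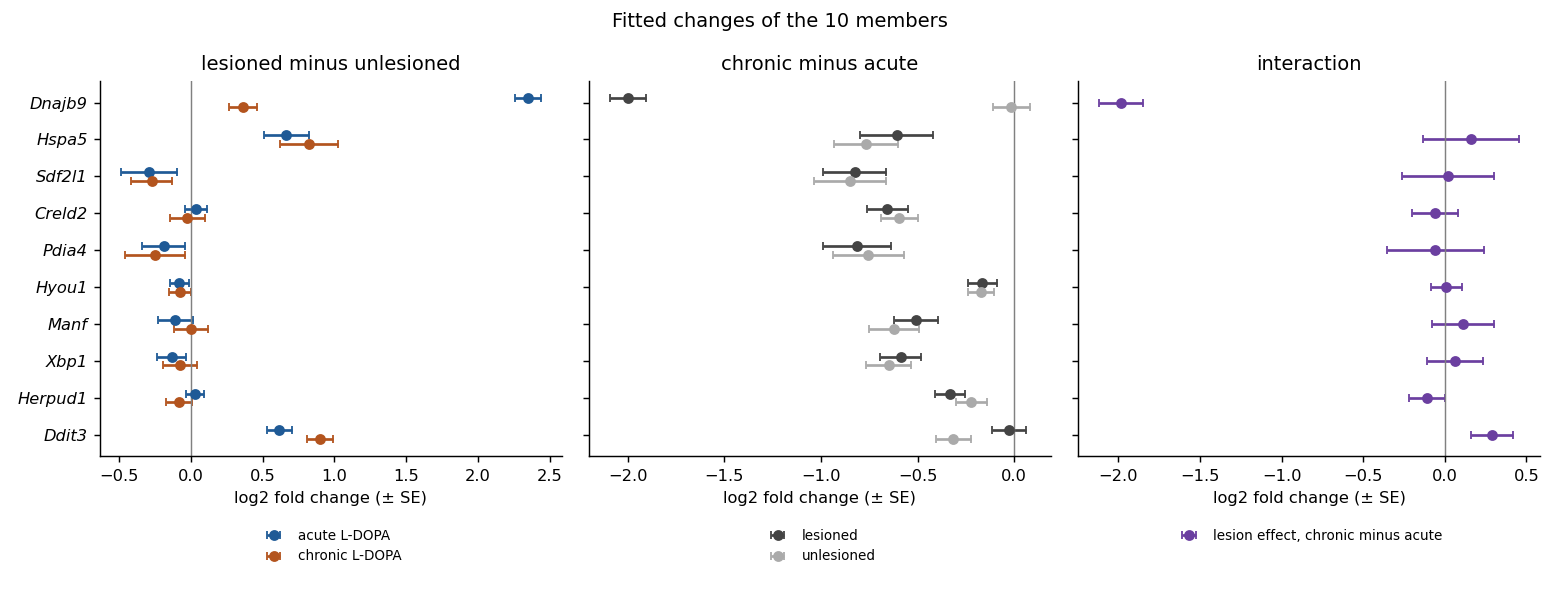
Fitted log2 fold changes ± SE of the 10 members from fits on 3 against 3 libraries (left and middle) and on all 12 (right). Left, lesioned minus unlesioned; middle, chronic minus acute; right, the interaction. Dnajb9 lies apart at 2.35 and -1.98, Hspa5 and Ddit3 are above 0 on the left after both treatments, and in the middle panel all fitted values lie below 0.

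Most members were lower after chronic than after acute L-DOPA, on both sides of the brain. The 2 comparisons share no library with each other, but each shares its libraries with the lesion comparisons. In the lesioned striatum 7 of the 9 tested members fell, namely Sdf2l1 (-0.83 ± 0.16), Pdia4 (-0.81 ± 0.18), Creld2 (-0.66 ± 0.11), Hspa5 (-0.61 ± 0.19), Xbp1 (-0.59 ± 0.11), Manf (-0.51 ± 0.11) and Herpud1 (-0.33 ± 0.08). Their edgeR adjusted p ran from 0.00194 for Creld2 to 0.0376 for Hspa5. Of all 19790 genes, 13.1% were called lower there. The Hspa5 call was the least firm, since its libraries overlapped and the call was lost under 7 of the alternatives. Hyou1 at -0.17 ± 0.08 and Ddit3 at -0.03 ± 0.09 did not pass. The median over the 9 was -0.59, against -0.02 over all genes.

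In the unlesioned striatum 5 of the 9 fell: Sdf2l1 (-0.85 ± 0.19), Hspa5 (-0.77 ± 0.17), Xbp1 (-0.65 ± 0.12), Manf (-0.62 ± 0.13) and Creld2 (-0.60 ± 0.10), with edgeR adjusted p from 0.0170 to 0.0410. There 2.00% of 20290 genes were called lower, and the median of the 9 was -0.62 against -0.00 over all genes. Pdia4 at -0.76 ± 0.18 narrowly missed (edgeR adjusted p = 0.0570), and Hyou1, Herpud1 and Ddit3 stood at -0.17, -0.22 and -0.31. These 5 calls were not firm: with all libraries kept they became 3 in a table of 1 transcript per gene and 0 with counts summed per gene. Likewise, without acute unlesioned replicate 1 or 2, or chronic unlesioned replicate 3, none of the 9 was called by edgeR, and without chronic unlesioned replicate 1 only Creld2 was. Without the library rich in Ttr 7 of 9 were called, as were 6.63% of all genes in that direction, Pdia4 then at -1.01 ± 0.14 and Herpud1 at -0.31 ± 0.07. All 9 kept a value below 0 in each fit that left out a library.

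Xbp1 measured 26.6, 27.1 and 21.5 CPM in acute unlesioned, 23.5, 25.0 and 19.6 CPM in acute lesioned, 15.6, 18.5 and 13.7 CPM in chronic unlesioned and 13.7, 16.9 and 14.7 CPM in chronic lesioned libraries. Sdf2l1 measured 3.84, 3.73 and 2.19, then 3.01, 2.88 and 2.05, then 1.71, 2.02 and 1.71, and last 1.36, 1.76 and 1.36 CPM in the same order of groups. For both genes every acute library was above every chronic library.

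Pdia4 measured 13.1, 11.8 and 8.47 CPM in acute unlesioned, 10.6, 10.8 and 7.69 CPM in acute lesioned, 5.43, 8.65 and 5.66 CPM in chronic unlesioned and 4.77, 7.20 and 4.54 CPM in chronic lesioned libraries. Its groups overlapped in the unlesioned striatum because the library rich in Ttr was above acute replicate 3. Creld2 measured 4.10, 3.89 and 3.82 CPM in acute unlesioned, 4.04, 4.25 and 3.77 CPM in acute lesioned, 2.30, 2.89 and 2.60 CPM in chronic unlesioned and 2.25, 2.79 and 2.59 CPM in chronic lesioned libraries. It had a narrow spread and a gap between the treatments on both sides.

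Manf measured 11.8, 10.3 and 8.48 CPM in acute unlesioned, 10.7, 9.37 and 8.02 CPM in acute lesioned, 6.06, 7.76 and 6.01 CPM in chronic unlesioned and 6.49, 7.25 and 6.06 CPM in chronic lesioned libraries. Among these 7 genes Herpud1 and Hyou1 had the smallest fitted changes, Herpud1 going from a mean of 12.3 ± 0.38 to 10.5 ± 1.06 CPM (SD, n = 3) in unlesioned and from 12.5 ± 0.77 to 9.92 ± 0.43 CPM in lesioned striatum. Hyou1 went from 21.4 ± 1.18 to 18.9 ± 0.62 CPM and from 20.1 ± 1.10 to 17.9 ± 0.72 CPM. Even so, the acute and chronic libraries of both genes did not overlap on either side. Not overlapping downward were 7 of the 9 tested members in the lesioned and 8 of 9 in the unlesioned striatum, where 21.7% and 14.6% of all genes did so.

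**Figure D3:**
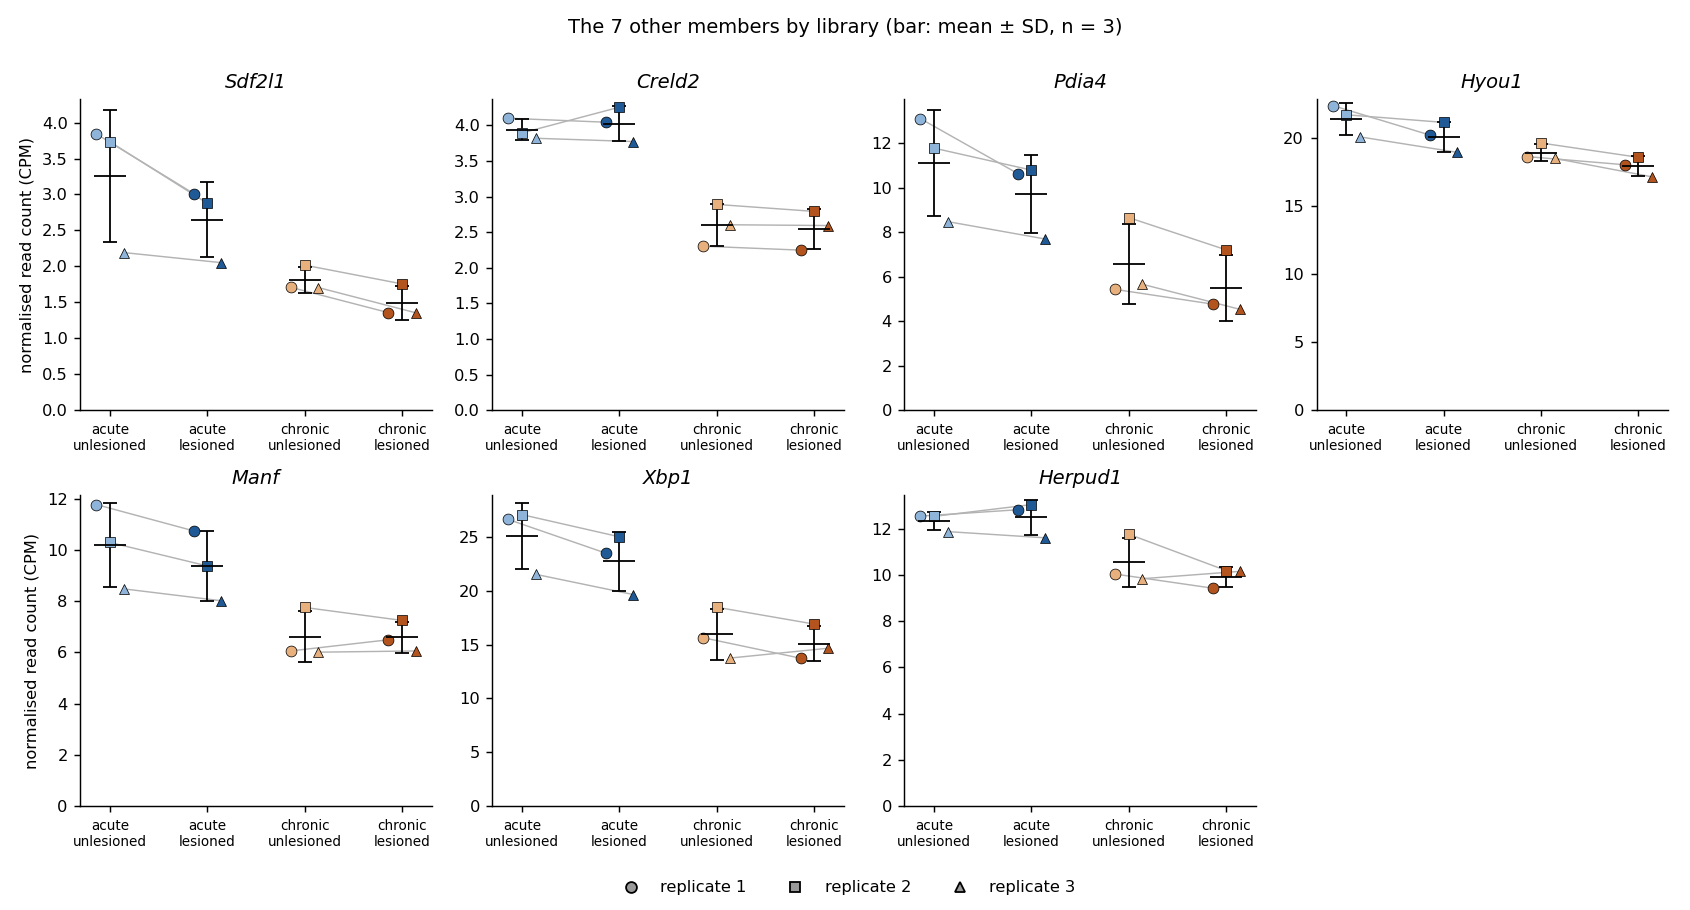
Normalised read count (CPM, linear axes from 0) of the 7 members with no call for the lesion, in the 4 groups of 3 libraries; symbols mark replicates, grey lines join same-numbered libraries and bars give the mean ± SD. Acute replicate 3 is the lowest of its group and chronic replicate 2 the highest of its group in each of the 7 panels, on both sides of the brain.

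The 7 genes also moved together among libraries of a group. Acute replicate 3 held the lowest value of its group for 7 of the 7 in the unlesioned and for 7 of 7 in the lesioned striatum. Chronic replicate 2 held the highest value for 7 of 7 on both sides, and on the unlesioned side it is the library rich in Ttr. Same-numbered libraries of the 2 sides thus deviated together, and the blocked fit is given beside the lesion effects it changes. Acute and chronic libraries came from different mice, and the sources used here do not say whether they were handled together, so treatment and such a difference cannot be told apart.

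Markers of other cells moved in the same comparison. In the lesioned striatum edgeR called 10 of 10 oligodendrocyte markers lower after chronic than acute L-DOPA and DESeq2 called 2, their sum running from 2280 to 3786 CPM in acute and from 1285 to 2260 CPM in chronic libraries. Of the microglia markers 8 of 10 were lower (124 to 148 against 80.0 to 102 CPM), and of 5 tested blood markers 4 (5.31 to 10.6 against 1.87 to 3.62 CPM). The astrocyte, endothelial and spiny neuron lists went both ways: 1 astrocyte marker was higher (Fgfr3) and 4 lower (Slc1a3, Aldh1l1, Gja1 and S100b), 1 endothelial marker higher (Slco1a4) and 1 lower (Cdh5), and 3 spiny neuron markers higher (Pdyn 10.2-fold, Drd1a 2.08-fold and Pde10a) and 2 lower (Drd2 and Adora2a). Choroid plexus genes went both ways too, Kl (3.47-fold) and Clic6 (2.08-fold) higher and Enpp2 and Aqp1 lower, and the cortical markers Fezf2 and Rorb were lower. In the unlesioned striatum edgeR called 0 of 10 oligodendrocyte markers (3 at an unadjusted p under 0.05, 0 by DESeq2), with sums of 2248 to 2532 and 1714 to 2447 CPM, and 5 of 10 microglia markers lower (112 to 117 against 76.3 to 96.7 CPM). Without the library rich in Ttr, 8 of 10 oligodendrocyte, 6 of 10 microglia, 4 of 10 astrocyte and 2 of 5 blood markers were called lower there, and Fgfr3 higher. Also called in the unlesioned striatum with all libraries were the astrocyte markers Aqp4 and Gja1 and the spiny neuron marker Drd2, lower, and Slco1a4 (endothelium), Clic6 (choroid plexus) and Cux2 (cortical neurons), higher. Of the oligodendrocyte, microglia and blood lists, the blood gene Slc4a1 alone was at 3 counts or fewer throughout a group, in both chronic groups. The part of these cell type markers in the members' decrease was not tested. In bulk tissue, fewer cells of a type and less RNA per cell cannot be told apart.

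For the 9 tested members the interaction gave no call, where 5.10% of 20682 genes were called in either direction. EdgeR gave 1 unadjusted p under 0.05, for Ddit3, and DESeq2 called 0 of the 9. The fitted interactions of the 9 ran from -0.11 ± 0.11 for Herpud1 to 0.29 ± 0.13 for Ddit3. Hspa5, Sdf2l1 and Pdia4 had the widest errors, 0.29, 0.28 and 0.30. With the replicate block their interactions were 0.12 ± 0.09, -0.00 ± 0.13 and -0.07 ± 0.09 and that of Ddit3 was 0.29 ± 0.10 (edgeR adjusted p = 0.0667), again with no call among the 9. The interaction of Dnajb9, at -1.98 ± 0.14, was outside the range of the other 9, as its choice implies.

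Per length of transcript, in CPM per kilobase, Hspa5 was the most abundant member in each group and stood at 30.5 in acute unlesioned striatum, followed by Xbp1 at 11.8 and Herpud1 at 6.31. Dnajb9 was at 3.63 there, below Ddit3, Hyou1, Manf and Pdia4, and above Sdf2l1 at 2.94 and Creld2 at 2.89. In acute lesioned striatum Dnajb9 was at 18.4 CPM per kilobase, second to Hspa5 at 48.1 and above Xbp1 at 10.7. After chronic L-DOPA it was at 4.61 on the lesioned side, below Ddit3 at 8.72, Xbp1 at 7.09 and Herpud1 at 5.08.

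Around the members, the other genes of the pathway were grouped by role. Their counts stand beside 8.16% of all genes called higher and 7.16% called lower on the lesioned side with acute L-DOPA, and 8.46% and 5.20% with chronic L-DOPA. Of 12 sensors and processing proteases, 3 were called after acute L-DOPA (Creb3l1 higher, Atf6 and Mbtps1 lower) and 3 were higher after chronic L-DOPA (Creb3l1, Wfs1 and Ern1). Without the library rich in Ttr the chronic calls were Creb3l1, Wfs1 and Creb3l2 higher and Mbtps1 lower. Creb3l1, a membrane-bound transcription factor related to Atf6, measured 0.37 ± 0.06 and 0.65 ± 0.09 CPM (SD, n = 3) in acute unlesioned and lesioned striatum, and 0.37 ± 0.06 and 3.15 ± 0.35 CPM in chronic. Its lesion effect rose from 0.84 ± 0.18 to 3.09 ± 0.15, with an interaction of 2.25 ± 0.23 (edgeR adjusted p = 3.93e-05), the opposite direction to Dnajb9. Ern1, which encodes Ire1, had effects of 0.35 ± 0.11 (not called) and 0.43 ± 0.11, and Atf6 had -0.33 ± 0.07 and -0.02 ± 0.10 (not called). Wfs1, a calcium-handling membrane protein, had 0.09 ± 0.09 (not called) and 0.55 ± 0.15.

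Of 19 other chaperones and folding enzymes, 2 were higher and 1 lower after acute, and 4 higher and 1 lower after chronic L-DOPA. P4hb, the founding disulphide isomerase, rose by 0.75 ± 0.06 and 0.56 ± 0.10 in the lesioned striatum. Hsp90b1 (Grp94) rose by 0.36 ± 0.10 after acute L-DOPA and had -0.07 ± 0.12 (not called) after chronic. Without the library rich in Ttr the chronic calls were 3 higher and 0 lower, Pdia5 and Fkbp2 being lost. Between treatments 5 of the 19 fell in the lesioned striatum (Hsp90b1 by 0.87, Pdia6, Calr, Fkbp2 and Cnpy3) and 3 rose (Ero1l, Hspa13 and Sil1), with a median of -0.05, where 13.1% of all genes were called lower and 12.5% higher. In the unlesioned striatum 3 fell (Hsp90b1 by 0.45, Pdia6 and Calr) and none was called higher, or 5 without the library rich in Ttr, Erp44 and Pdia3 added. Pdia5 and Txndc11 rose after chronic L-DOPA by 0.64 ± 0.18 and 0.36 ± 0.10.

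EdgeR without the replicate block called none of 10 other J-domain proteins of the endoplasmic reticulum, the family of Dnajb9, for lesion or interaction. Unadjusted p were under 0.05 for 3, 2 and 1 of them in the acute, chronic and interaction tests, and DESeq2 called 0. The block raised the lesion calls to 25.1% (acute) and 24.2% (chronic) of all genes, and the pathway lists are given without it. Of 17 tested genes of degradation, Syvn1, the ligase Hrd1, rose by 0.26 ± 0.06 after acute L-DOPA and was the only call; after chronic L-DOPA edgeR called 0, with 2 unadjusted p under 0.05 and 0 calls by DESeq2. Of 15 genes of the translocon and signal peptidase, Spcs3 fell after both treatments (-0.29 ± 0.07 and -0.27 ± 0.07), while Ssr4 and Sec61a1 rose after chronic L-DOPA (0.50 ± 0.09 and 0.35 ± 0.09). The chronic call of Spcs3 was lost without the library rich in Ttr, and in the unlesioned striatum Sec61a1 and Sec11c were then called lower between treatments. With all libraries, 4 of the 17 degradation genes were called higher and 1 lower between treatments in the lesioned striatum. The J-domain list had 1 higher, the translocon list 1 lower, and the sensors 2 higher and 1 lower (12.5% and 13.1% of all genes). In the unlesioned striatum the degradation and sensor lists each had 1 higher and 1 lower, and the J-domain list 1 higher.

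The Perk branch had the most calls of these groups. Of its 20 genes 10 were higher and 1 lower on the lesioned side with acute L-DOPA, and 6 higher and 1 lower after chronic L-DOPA, with medians of 0.27 and 0.14 (8.16% and 8.46% of all genes were called higher). After chronic L-DOPA 5 were higher and 1 lower without the library rich in Ttr. Between treatments 3 of the 20 were called higher and 5 lower in the lesioned striatum (12.5% and 13.1% of all genes). In the unlesioned striatum edgeR called 0 of the 20 (4 at an unadjusted p under 0.05, 3 by DESeq2). Without the library rich in Ttr, Atf4, Atf5 and Slc7a11 were called lower there, as were 6.63% of all genes. Atf4, the central transcription factor of this branch, rose by 1.14 ± 0.09 and 1.22 ± 0.10, and Cebpb, a partner of Chop, by 1.14 ± 0.14 and 0.75 ± 0.17. Trib3 was the gene called lower after chronic L-DOPA, at -1.08 ± 0.31, and stood at -0.67 ± 0.22 after acute (not called). Chac1 (-0.09 and -0.02), Asns (-0.13 and 0.08) and Ddit4 (0.03 and -0.23) were not called after either treatment. Ppp1r15a (Gadd34), which restores translation, measured 3.13, 3.09 and 3.57 CPM in acute unlesioned, 13.9, 16.4 and 18.1 CPM in acute lesioned, 3.87, 3.17 and 3.24 CPM in chronic unlesioned and 9.27, 5.79 and 10.0 CPM in chronic lesioned libraries. The sides stayed apart after both treatments. Its lesion effects were 2.32 ± 0.10 and 1.29 ± 0.18, and the interaction was -1.03 ± 0.23 (edgeR adjusted p = 0.0175). Stc2, a secreted glycoprotein induced by stress, fell by 1.37 after acute L-DOPA and stood at -0.60 ± 0.19 after chronic (not called).

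**Figure D4:**
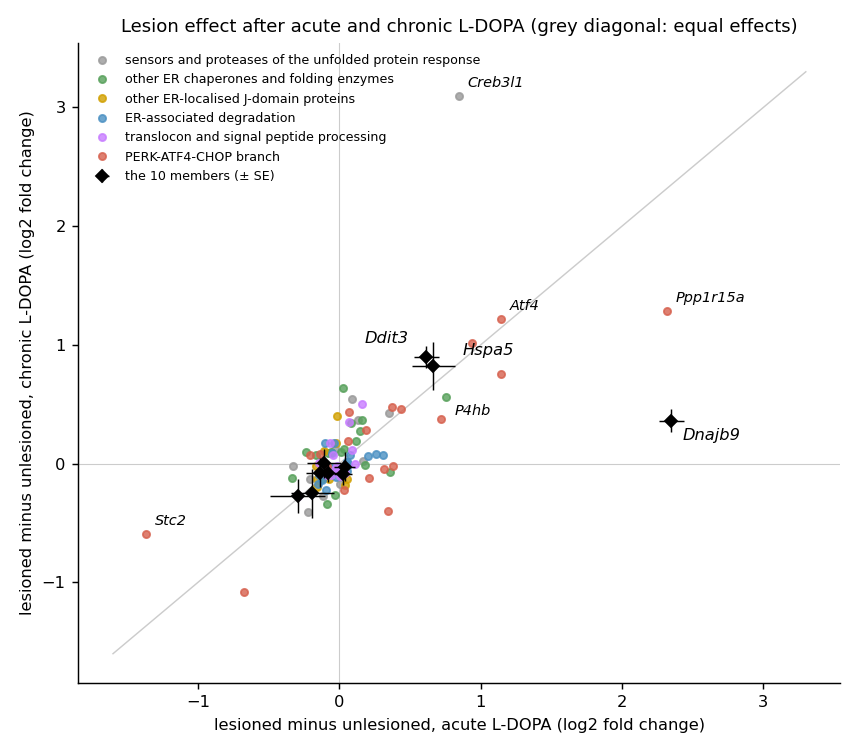
Lesion effect (log2 fold change, lesioned minus unlesioned) after acute L-DOPA on the x axis and after chronic L-DOPA on the y axis, for the 10 members (black, ± SE) and 6 lists of pathway genes (colours). The grey diagonal marks equal effects; Dnajb9 (2.35 against 0.36) and Ppp1r15a (2.32 against 1.29) lie below it, Creb3l1 (0.84 against 3.09) above it, and Hspa5, Ddit3 and Atf4 near it.

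Outside the endoplasmic reticulum, the cytosolic heat shock list had 4 of 14 genes higher after acute L-DOPA and 2 higher and 1 lower after chronic, or 4 higher and 1 lower without the library rich in Ttr. Dnajb1, a cytosolic J-domain protein, had lesion effects of 3.64 ± 0.22 and 1.51 ± 0.29 and an interaction of -2.13 ± 0.42 (edgeR adjusted p = 0.00847). Hspa8 rose by 0.60 ± 0.11 and 0.58 ± 0.13, while Hsph1 and Bag3 rose after acute L-DOPA by 0.87 ± 0.20 and 0.88 ± 0.15. Between treatments 13 of the 14 were lower with chronic than with acute L-DOPA in lesioned striatum, where 13.1% of all genes were, in the same comparison in which the members fell. In the unlesioned striatum 3 of the 14 were lower, or 12 without the library rich in Ttr, against 2.00% and 6.63% of all genes. Immediate early genes, which report neuronal activation, were higher in the lesioned striatum for 10 of 10 after both treatments, among them Fos (4.39 and 4.62), Fosb (4.67 and 4.94), Egr2 (4.10 and 4.78) and Arc (3.31 and 3.74). Between treatments 6 of these 10 were called lower and 1 higher with chronic L-DOPA in the lesioned striatum, with a median of -0.46. Of all genes 13.1% were called lower and 12.5% higher there. In the unlesioned striatum 8 of the 10 were lower, or 10 without the library rich in Ttr. An interaction was called for 3 of the 10, or 5 without that library. Egr2 had an interaction of 0.69 ± 0.17 (edgeR adjusted p = 0.0308).

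Across the 12 libraries the genes whose log2(CPM + 0.5) most resembled that of Dnajb9, among 12794 others of at least 1 CPM, were Zfp869 (Pearson r = 0.991), Taf7 (0.990), Ppp1r10 (0.984), Thoc4 (0.984) and Mepce (0.983). The libraries fall into 4 groups, and the likeness rests largely on the acute lesioned one. Ppp1r10 measured 6.98 ± 0.34, 32.8 ± 2.03, 6.07 ± 0.55 and 8.34 ± 0.55 CPM (SD, n = 3) in acute unlesioned, acute lesioned, chronic unlesioned and chronic lesioned striatum. Taf7 measured 1.97 ± 0.16, 8.49 ± 0.72, 1.65 ± 0.21 and 2.03 ± 0.24 CPM in that order. Among the members Hspa5 came nearest to Dnajb9, with r = 0.741, and 581 other genes were closer. The next was Ddit3 with r = 0.660, and Hyou1 was farthest with r = 0.143.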

How the data were processed

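Striatal RNA of 12 libraries (TruSeq kit, which does not mark strand) was sequenced on a Genome Analyzer II and mapped to mm9 with the Genomatix Mining Station, and the authors deposited unnormalised read counts per transcript. Transcripts of 1 gene share reads in these counts, so library totals exceed the reads, and the treatment of multiply mapped reads is not given in the sources used here. A normalized expression signal, also deposited by the authors, served to check the counts. Rows without a symbol (296, holding 0.0485% of counts) were left out. The authors' comparison tables hold results of DESeq, which the submitters' processing notes also name; they and the 36 per-sample columns in them were not used.

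Pairwise comparisons used the 6 libraries of the groups compared and the interaction used all 12, over all transcripts, in edgeR 4.0.16 (limma 3.58.1, R 4.3.3; filterByExpr, TMM, glmQLFit, glmQLFTest) with no block. The standard error is the log2 fold change divided by the root of its F statistic. A call is a Benjamini-Hochberg adjusted p under 0.05 over all transcripts, and CPM are counts scaled to the TMM-adjusted library total. Alternatives were DESeq2 1.42.0, other scalings, filters and units, each library left out, and the replicate number as a block. The fits were tested on simulated data. With 3 against 3, an exact permutation test cannot go below p = 0.10, so none was run. Replicates differed by more than sampling noise; where they are not separate mice, p-values measure only the spread between these libraries.

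Whether replicate numbers pair the sides was checked across 12795 genes of at least 1 CPM: the departures from the group mean of 2 libraries with 1 number correlated at 0.478, 0.446 and 0.391 after acute and at 0.518, 0.565 and 0.153 after chronic L-DOPA, above the limit of 0.1. Lesioned 1 and unlesioned 3 of the chronic groups correlated at 0.156, so the check does not single out the third chronic pair. The pairing was taken from this check, since the labels count separate mice.

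The members and gene lists were chosen with earlier results of these data known. Named genes were the 10 members, up to 4 per pathway list with the largest change among those called for the lesion or the interaction, and the 5 most like Dnajb9; genes beyond these, among them Mbtps1, Creb3l2, Pdia6, Calr, Mars and the cell type markers, were named after their values were seen. Promoters came from RefSeq (GRCm38.p6), gene positions from the deposited table, and exons from GENCODE on the mm9 assembly. Python 3.11.15 made the tables, with pandas 2.3.3 and numpy 2.4.6, and the figures, with matplotlib 3.10.9.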

Additional observations from a re-analysis of the deposited data

Results flagged for a closer look

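The interaction, the lesion effect after chronic minus that after acute L-DOPA, was called for 5.10% of all genes, and given here are the called ones among the members, the pathway genes named by rule, the 5 genes most like Dnajb9 and the cell type markers. Dnajb9 had an interaction of -1.98 ± 0.14 on the log2 scale, given as a description because the gene was chosen for this pattern. By edgeR, Ppp1r15a had -1.03 ± 0.23 (adjusted p = 0.0175) and Dnajb1 had -2.13 ± 0.42 (adjusted p = 0.00847), both with a smaller lesion effect after chronic L-DOPA. Creb3l1 had 2.25 ± 0.23 (edgeR adjusted p = 3.93e-05) and Egr2 had 0.69 ± 0.17 (edgeR adjusted p = 0.0308), both with a larger one. The spiny neuron markers Drd1a (0.98, edgeR adjusted p = 0.00507) and Pdyn (3.26, edgeR adjusted p = 1.05e-07) also had a positive interaction. The genes most like Dnajb9, chosen for that likeness and so given with no test, had -1.21 (Zfp869), -1.81 (Taf7), -1.78 (Ppp1r10), -0.98 (Thoc4) and -0.52 (Mepce).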

How the results depend on the processing

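No value of a member changed sign where it was called, under the alternatives run. Of 666 values of the 9 tested members under an alternative, 575 kept their side of the threshold and their sign, 43 lost their call, 6 gained one, and 42 others near 0 changed sign with no call. Among the 9 tested members, the acute lesion comparison had 2 calls, 1 with all 12 libraries in 1 fit and 4 with the replicate block, and 1 to 2 when a library was left out. The chronic lesion comparison had 2 calls, 1 with DESeq2, 3 with the replicate block and 1 to 2 when a library was left out; the call lost was that of Hspa5. In the lesioned striatum 5 to 7 of the 7 calls between treatments stayed when a library was left out. In the unlesioned striatum the 5 calls became 3 in a table of 1 transcript per gene, 0 when counts were summed over the transcripts of a gene, and 0 to 7 when a library was left out; over all transcripts those fits called 66 to 14377 against 3370, and fewer libraries entered each. The interaction had 0 calls among the 9 under each alternative, the replicate block included, and that of Dnajb9 ran from -2.06 to -1.91. For the other changes the cause was not tested. Counts limit Sdf2l1 and Creld2 most, with 119 and 197 counts in the shallowest chronic lesioned library.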
